A study of Danio rerio with 5 samples.

Results

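The 7 zebrafish genes described here act in interferon responses and in the processing of antigens: isg15, irf1b, gbp1, b2m, cd74a, cd74b and ifi30a. They were picked by gene symbol, and each was represented by 1 probe set, so that 7 of the 8793 genes with 1 symbol on the array were members. All 7 were bright enough to be tested, gbp1 through its values in the wild-type pools. Each array held RNA of 3 adult zebrafish, whose upper digestive tracts had been pooled. The labels give 3 such pools as biological replicates of zCdx1b transgenic fish and 2 as biological replicates of wild-type fish. All fish were 3 months old and of the AB background, and the transgenic fish came from AB* eggs injected with a Tol2 construct that joins zCdx1b and EGFP to the element zK5p, a keratin 5 promoter, together with Tol2 transposase RNA. Keratin 5 belongs to the basal layer of stratified epithelium. The sources used here give neither the number of founders behind the transgenic fish nor the sex of the fish.

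Interferons are secreted proteins that bind receptors on nearly all cells and switch on a broad set of antiviral genes through JAK kinases, STAT proteins and interferon regulatory factors. The same signals raise genes for antigen presentation. Class I molecules, which nearly all cells carry, show peptides from the cytosol and need beta-2 microglobulin, whereas class II molecules, mainly of B cells, macrophages and dendritic cells, show peptides cut in lysosomes and need the invariant chain CD74. The gut wall is a place where leukocytes and epithelium meet microbes, and both pathways are in use there.

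The 7 genes did not move together. The ubiquitin-like modifier isg15 and the lysosomal thiol reductase ifi30a were higher in the transgenic pools, the transcription factor irf1b, the GTPase gbp1 and both invariant chain genes were lower, and the values of the class I light chain b2m overlapped between the groups. Of the 7 probe sets, 2 rose and 4 fell past an adjusted p of 0.05 (limma, Benjamini-Hochberg over 10335 probe sets), and in 6 of 7 the values of the groups did not overlap. These counts stand against a large background, since 21.8% of all tested probe sets passed in either direction (10.1% of all tested higher and 11.7% lower), and 50.9% did not overlap between the groups. All values below are on the deposited log2 scale, where a difference of 1 is a 2-fold difference. Levels of different probe sets cannot be compared with each other. As tissue was profiled in bulk, fewer cells of a type and less RNA per cell cannot be told apart.

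**Figure D1:**
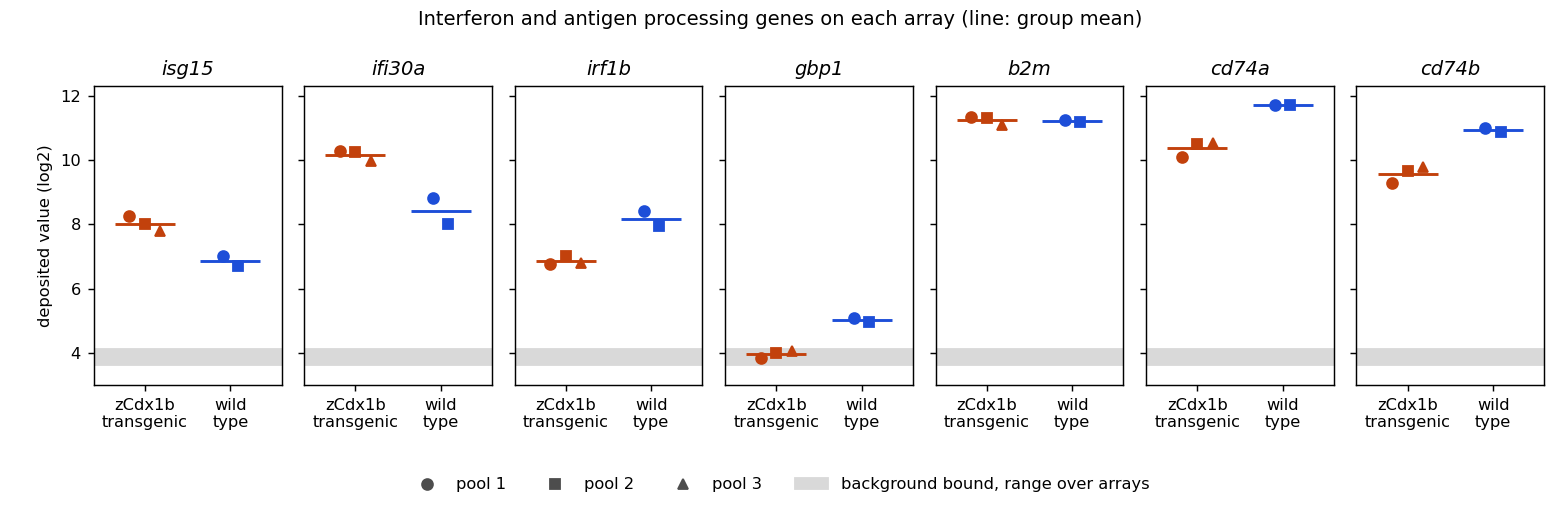
Deposited log2 values of the 7 genes on each array, with zCdx1b transgenic pools in orange on the left and wild-type pools in blue on the right of each panel, and lines at the group means. The gray band is the range over arrays of the background bound, 3.64 to 4.13; isg15 and ifi30a lie higher in all transgenic pools, irf1b, gbp1, cd74a and cd74b lower, and the groups overlap only for b2m.

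Among the interferon genes, isg15 encodes a small ubiquitin-like protein that is among the most strongly induced products of type I interferon in vertebrates. Its values were 8.27, 8.01 and 7.81 in the transgenic pools, against 7.02 and 6.70 in the wild-type pools. Every transgenic pool was above both wild-type pools, with a gap of 0.78 between the nearest arrays. The means were 8.03 ± 0.23 (SD, n = 3) in transgenic and 6.86 ± 0.23 (SD, n = 2) in wild-type pools. The rise was 1.17 (log2, SE 0.27, 95% interval 0.51 to 1.82), or 2.24-fold, with a limma adjusted p of 0.0286. The call was lost with most single arrays left out: without any 1 array the change stayed between 1.0 and 1.33, but the adjusted p was 0.0784, 0.154 and 0.0547 without transgenic pools 1, 2 and 3, 0.0552 without wild-type pool 2, and passed, at 0.0378, only without wild-type pool 1.

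The gene irf1b is 1 of the zebrafish relatives of mammalian IRF1, a transcription factor that interferon gamma induces and that activates class I genes and guanylate binding proteins. It read 6.78, 7.03 and 6.80 in the transgenic pools, against 8.41 and 7.94 in the wild-type pools. All transgenic pools lay below both wild-type pools, by at least 0.91, and the transgenic pools lay within 0.25 of each other. Means were 6.87 ± 0.14 (SD, n = 3) in transgenic and 8.18 ± 0.33 (SD, n = 2) in wild-type pools. The gene fell by 1.30 on the log2 scale (SE 0.27), a level 2.47-fold lower in transgenic pools, with an adjusted p of 0.0201. It no longer passed without transgenic pool 2 (a change of -1.38, adjusted p = 0.0957) or transgenic pool 3 (a change of -1.27, adjusted p = 0.0626).

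Guanylate binding proteins, of which gbp1 is a member, are large GTPases that in mammals assemble on intracellular pathogens after interferon gamma. The gene gbp1 read low, with values of 3.84, 4.02 and 4.06 in the transgenic pools, against 5.10 and 4.97 in the wild-type pools. The transgenic values were close to the background bound, the highest reading of 44 control probe sets on each array, and that of transgenic pool 1 was at or below its bound of 3.95. Testing required the 40th percentile of the array on at least 2 arrays. Both wild-type pools reached it but, of the transgenic pools, only pool 3, so gbp1 was tested through the wild-type pools. The groups did not overlap, and means were 3.97 ± 0.12 (SD, n = 3) in transgenic and 5.04 ± 0.10 (SD, n = 2) in wild-type pools. It fell by 1.07 on the log2 scale (SE 0.17, adjusted p = 0.00865), to a level 2.09-fold lower in transgenic pools. With no filter on brightness its limma adjusted p was 0.0115. Without transgenic pool 2 the change was -1.09 and the adjusted p 0.0587.

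The light chain b2m, which pairs with class I heavy chains at the cell surface, read far above the background bound on all arrays. It read 11.33, 11.31 and 11.08 in the transgenic pools, against 11.25 and 11.18 in the wild-type pools. The wild-type values lay inside the range of the transgenic ones. The means were 11.24 ± 0.14 (SD, n = 3) in transgenic and 11.21 ± 0.05 (SD, n = 2) in wild-type pools, and the change of 0.03 (SE 0.11, adjusted p = 0.902) had a 95% interval of -0.25 to 0.30. A 2-fold difference in either direction lay outside this interval. The sign of the small change turned with the scaling, to -0.18 after quantile normalization.

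CD74 is the invariant chain, which fills the groove of new class II molecules and carries them to the endolysosome, and zebrafish have it as cd74a and cd74b. The gene cd74a read 10.09, 10.50 and 10.54 in the transgenic pools, against 11.70 and 11.71 in the wild-type pools. The gene cd74b read 9.28, 9.66 and 9.78 in the transgenic pools, against 10.99 and 10.89 in the wild-type pools. For both genes every transgenic pool was below both wild-type pools, and transgenic pool 1 was the lowest array.

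The means of cd74a were 10.38 ± 0.25 (SD, n = 3) in transgenic and 11.70 ± 0.0023 (SD, n = 2) in wild-type pools, and those of cd74b were 9.57 ± 0.26 (SD, n = 3) in transgenic and 10.94 ± 0.07 (SD, n = 2) in wild-type pools. The gene cd74a fell by 1.33 on the log2 scale (SE 0.16, adjusted p = 0.00366), a level 2.51-fold lower in transgenic pools. The gene cd74b fell by 1.37 (SE 0.19, adjusted p = 0.00559), a level 2.58-fold lower. Both passed the test with any 1 array left out, with changes from -1.41 to -1.19 for cd74a and from -1.47 to -1.22 for cd74b. The difference of cd74b minus cd74a within each array was -0.81, -0.84 and -0.76 in the transgenic pools, against -0.71 and -0.81 in the wild-type pools, so that the ranges of the difference overlapped while both genes fell.

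The gene ifi30a encodes the lysosomal thiol reductase GILT, which in mammals is induced by interferon gamma and opens disulfide bonds of proteins on their way to class II molecules. It had 10.30, 10.24 and 9.98 in the transgenic pools, against 8.83 and 8.03 in the wild-type pools. The transgenic pools lay at least 1.15 above the wild-type pools, although the wild-type pools differed from each other by 0.80. Means were 10.18 ± 0.17 (SD, n = 3) in transgenic and 8.43 ± 0.57 (SD, n = 2) in wild-type pools. The rise of 1.75 (log2, SE 0.28, 95% interval 1.07 to 2.42), or 3.36-fold, was the largest change of the 7 and had an adjusted p of 0.00893. It passed with any 1 array left out, with changes between 1.34 and 2.15.

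**Figure D2:**
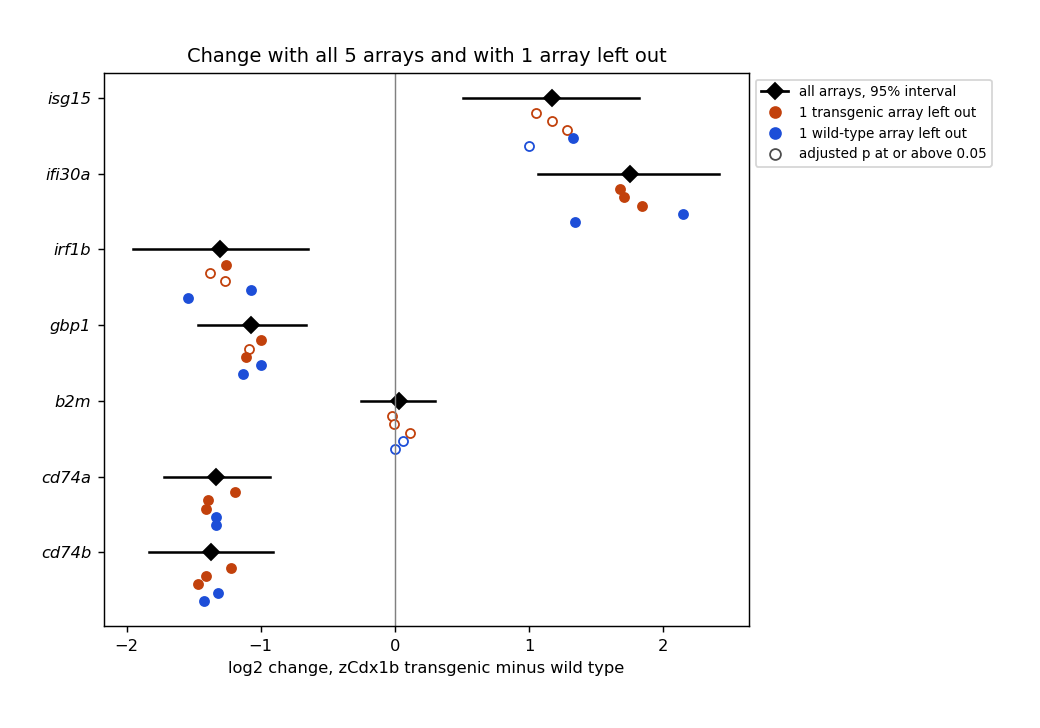
Log2 change, transgenic minus wild type, of the 7 genes with all 5 arrays (diamond, with its 95% interval) and with each array left out in turn (circles, orange for a transgenic and blue for a wild-type array; hollow where the adjusted p was at or above 0.05). The circles of isg15, irf1b and gbp1 keep their side of 0 but include hollow ones, those of ifi30a, cd74a and cd74b are all filled, and those of b2m lie around 0.

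Differences between genes on the same array show unequal changes without relying on how the arrays were scaled to each other, and the pairs were chosen after the values were seen. The size of such a difference on any 1 array has no meaning of its own, since it sets probe sets of unlike brightness against each other. Only its change between groups is read here.

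Of the genes of the class II route, ifi30a minus cd74a was 0.21, -0.26 and -0.55 in the transgenic pools, against -2.87 and -3.68 in the wild-type pools. Both genes act in the same compartment, and they moved apart by 3.08 on the log2 scale. The light chain b2m minus cd74a was 1.24, 0.81 and 0.55 in the transgenic pools, against -0.46 and -0.52 in the wild-type pools, so that the class I light chain stood 1.36 higher relative to the invariant chain in transgenic pools. Among the interferon genes, isg15 minus irf1b was 1.49, 0.98 and 1.0 in the transgenic pools, against -1.39 and -1.24 in the wild-type pools, a shift of 2.47. None of these 3 differences overlapped between the groups. For each of them this had to follow, and it adds no support. The genes ifi30a and isg15 had each risen, and cd74a and irf1b had each fallen, without overlap. The gap of cd74a between the groups, 1.17, was wider than the 0.25 within which all values of b2m lay.

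**Figure D3:**
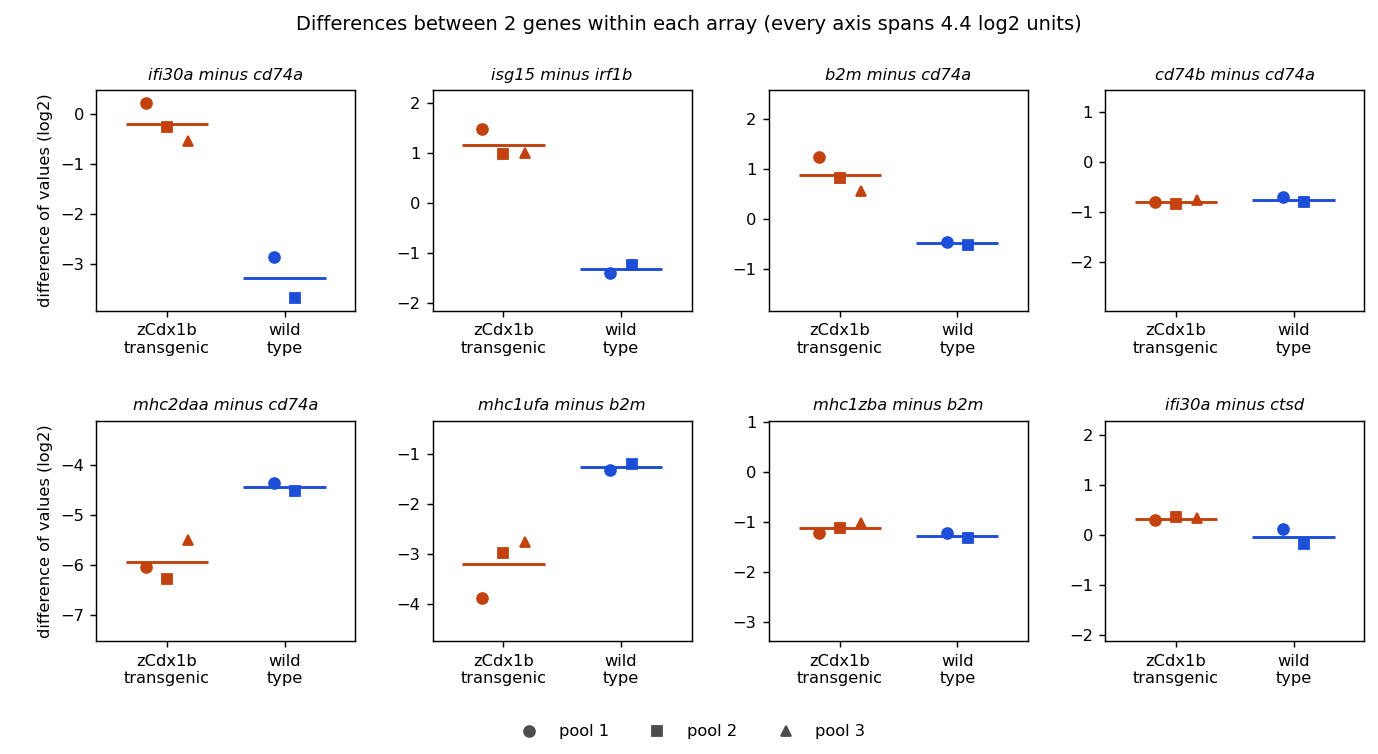
Differences between the log2 values of 2 genes within each array, transgenic pools in orange on the left and wild-type pools in blue on the right, with lines at group means and axes of equal span. The difference of ifi30a and cd74a shifts by 3.08 and that of isg15 and irf1b by 2.47, whereas that of cd74b and cd74a overlaps between the groups.

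Next to the 7 genes, other genes of the same pathways were counted, each by its brightest probe set, against 11.2% of 6479 genes higher and 11.3% lower and a median change of -0.08 over all genes. In the interferon response list, 13 of 14 genes on the array were bright enough to be tested, 2 rose and none fell, and the median change of the list was 0.14. The list held 62 symbols before members and genes absent from the array were dropped. The gene too dim to be tested was mxa, with 4.06, 4.07 and 3.70 in the transgenic pools, against 3.86 and 4.08 in the wild-type pools. The 2 that rose were mavs, the mitochondrial adaptor of RIG-I-like RNA sensors, and lgals9l1, a galectin gene. The adaptor mavs read 6.71, 6.57 and 6.37 in the transgenic pools, against 5.55 and 4.97 in the wild-type pools. Its rise was 1.29 (SE 0.27, adjusted p = 0.0223), and that of lgals9l1 was 1.02 (SE 0.21, adjusted p = 0.0193), with no overlap for either gene. Without transgenic pool 2 no gene of the list passed (mavs at 1.28, adjusted p = 0.107, lgals9l1 at 1.01, adjusted p = 0.103), and lgals9l1 also failed without wild-type pool 2, at 0.91 with an adjusted p of 0.0514.

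The genes of that list with the highest array values were nmi, which binds STAT proteins in mammals, and socs3a, a feedback inhibitor of cytokine receptors. The gene nmi had 7.51, 7.14 and 7.10 in the transgenic pools, against 7.23 and 7.32 in the wild-type pools, a change of -0.03 (adjusted p = 0.963). The values of socs3a were 6.80, 7.54 and 8.16 in the transgenic pools, against 7.70 and 8.61 in the wild-type pools, a change of -0.66 (SE 0.48, adjusted p = 0.403). Both overlapped between the groups. Second, dimmer probe sets of socs1a, another inhibitor of this family, and of ftr83, a tripartite motif gene of fish, were chosen after their values were seen. They fell by 0.85 (adjusted p = 0.0329) and by 1.79 (adjusted p = 0.00451), while the brighter probe sets of the same genes had changes of -0.46 (adjusted p = 0.33) and -1.17 (adjusted p = 0.0607). All 3 transgenic values of the dimmer ftr83 probe set were at or below the background bound, so its level was at least 2.39-fold lower in transgenic pools.

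In the list of interferon receptors, signalling proteins and regulatory factors, 11 of 14 genes were tested, none rose and 1 fell, with a median of -0.14. That 1 gene was irf5, a regulatory factor that in mammals acts downstream of Toll-like receptors, with 3.89, 3.98 and 4.20 in the transgenic pools, against 5.21 and 4.77 in the wild-type pools. The transgenic value of pool 1 was at or below its background bound. It fell by 0.96 on the log2 scale (SE 0.21, adjusted p = 0.0234), and the call was lost without transgenic pool 1 (-0.90, adjusted p = 0.057), transgenic pool 2 (-0.94, adjusted p = 0.114) or wild-type pool 1 (-0.75, adjusted p = 0.0601).

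The regulatory factor irf7, which drives type I interferon genes, had 7.85, 7.48 and 7.22 in the transgenic pools, against 6.86 and 6.89 in the wild-type pools. These groups did not overlap, but the change of 0.64 (SE 0.28) had an adjusted p of 0.164. The receptor kinase gene jak1 read lower in each transgenic pool than in either wild-type pool, with a change of -0.47 (SE 0.24, adjusted p = 0.221). The paralog irf1a was too dim to be tested, with all 5 values at or below the bound, so irf1b was the only irf1 gene with a measured change.

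In the list of class I presentation and peptide supply all 21 genes were tested, 1 rose and 3 fell, with a median of 0.18. Without wild-type pool 1 the list had 6 genes higher and none lower, with a median of 0.70, and without wild-type pool 2 none higher and 2 lower, with a median of -0.11. The 3 that fell were class I heavy chain genes. Class I heavy chains of zebrafish fall into lineages named U, Z and L, and the U genes carried differ between haplotypes of the species, which the labels do not give for these fish. The gene mhc1ufa had 7.44, 8.32 and 8.32 in the transgenic pools, against 9.92 and 9.98 in the wild-type pools. It fell by 1.92 on the log2 scale (SE 0.33, adjusted p = 0.0112), and by 1.95 without wild-type pool 1, where the adjusted p was 0.0521.

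The Z gene mhc1zca had 3.89, 4.60 and 4.78 in the transgenic pools, against 6.40 and 6.07 in the wild-type pools, and fell by 1.81 (SE 0.31, adjusted p = 0.0118). Its value in transgenic pool 1 was at or below the background bound. Without wild-type pool 1 its change was -1.65 and the adjusted p 0.0622. The U gene mhc1uda had 4.08, 6.05 and 5.89 in the transgenic pools, against 7.97 and 8.23 in the wild-type pools, and fell by 2.76 (SE 0.62, adjusted p = 0.0263). Transgenic pool 1 was the lowest array for all 3 genes, as it was for both cd74 genes. The call of mhc1uda was lost with either wild-type pool left out, at -2.89 without pool 1 (adjusted p = 0.0979) and at -2.63 without pool 2 (adjusted p = 0.105), and its other probe set had a change of -0.80 (SE 0.25, adjusted p = 0.0687).

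Not all heavy chain genes moved this way. The bright Z gene mhc1zba had 10.11, 10.19 and 10.06 in the transgenic pools, against 10.02 and 9.85 in the wild-type pools, with a change of 0.18 (SE 0.14, adjusted p = 0.438). The 2 probe sets of mhc1uka had changes of 1.02 (adjusted p = 0.072) and 0.84 (adjusted p = 0.0855), above 0 and without overlap between the groups, and the brighter of them passed without transgenic pool 3 (1.07, adjusted p = 0.0406). The brighter one bears the mark that Affymetrix gives to probe sets that may bind related transcripts, and binding across heavy chain genes was not tested. Relative to the light chain on the same array, mhc1ufa minus b2m was -3.89, -2.99 and -2.76 in the transgenic pools, against -1.33 and -1.20 in the wild-type pools. The heavy chain gene mhc1ufa therefore dropped by 1.95 relative to b2m, with no overlap. This had to follow and adds no support, since mhc1ufa alone had a gap of 1.59 and all values of b2m lay within 0.25.

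The gene of the list that rose was erap1b, an aminopeptidase that trims peptides in the endoplasmic reticulum, with 5.58, 5.57 and 5.51 in the transgenic pools, against 4.94 and 4.71 in the wild-type pools. Its rise was 0.73 (SE 0.19, adjusted p = 0.0408), and it passed without wild-type pool 1 but with no other array left out, with adjusted p of 0.109, 0.225 and 0.101 without transgenic pools 1, 2 and 3 (changes of 0.72, 0.72 and 0.75) and 0.0554 without wild-type pool 2 (0.61). Immunoproteasome subunits, which interferon gamma puts in place of the standard ones in mammals, did not pass: psmb8a had 8.25, 7.94 and 7.55 in the transgenic pools, against 7.87 and 6.42 in the wild-type pools, with a change of 0.76 (SE 0.48, adjusted p = 0.323). The change of psmb9a was 0.13 (adjusted p = 0.862), that of psmb10 0.62 (adjusted p = 0.236), that of psmb12 0.69 (adjusted p = 0.279) and that of psmb13a 0.82 (adjusted p = 0.276). For psmb8a, psmb9a, psmb12 and psmb13a the wild-type pools differed from each other by over 1 on the log2 scale, with pool 2 the lower. Without wild-type pool 1, psmb12 (1.25, adjusted p = 0.049) and psmb13a (1.52, adjusted p = 0.0468) passed.

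In the list of class II presentation and endolysosomal processing, 20 of 21 genes were tested, 6 rose and 2 fell, with a median of 0.13. Without wild-type pool 2 the list had 5 genes higher and 5 lower, with a median of -0.03. Those that rose with all arrays were 5 cathepsins and the protease legumain, and those that fell were a class II chain and a protease inhibitor. Other endolysosomal genes had changes below 0 that did not pass, without overlap between the groups. They included the cathepsin ctsk, with 6.06, 6.95 and 6.83 in the transgenic pools, against 8.68 and 7.58 in the wild-type pools (-1.51, SE 0.44, adjusted p = 0.0594), and the membrane proteins lamp1b (-0.91, adjusted p = 0.177) and lamp1a (-0.51, adjusted p = 0.275). The cathepsins ctsba (0.86, SE 0.41, adjusted p = 0.204) and ctsf (0.58, SE 0.25, adjusted p = 0.153) had changes above 0 that did not pass, also without overlap. The gene ctsk passed as lower without wild-type pool 2 (-2.06, adjusted p = 0.0395) and after quantile normalization (-1.66, adjusted p = 0.0218). The class II alpha chain gene mhc2daa had 4.04, 4.23 and 5.05 in the transgenic pools, against 7.34 and 7.20 in the wild-type pools. It fell by 2.83 on the log2 scale (SE 0.34, adjusted p = 0.00347), a level 7.10-fold lower in transgenic pools, and passed with any 1 array left out but not in an unmoderated linear model (adjusted p = 0.0568). Its value in transgenic pool 1 was close to the background bound of 3.95 on that array. Relative to cd74a on the same array mhc2daa dropped by 1.50, with no overlap. That lack of overlap had to follow and adds no support. The gap of mhc2daa between the groups, 2.15, was wider than the span of all cd74a values, which ran from 10.09 to 11.71.

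Of the other class II chains, mhc2d4b had 4.79, 5.30 and 5.14 in the transgenic pools, against 7.01 and 5.69 in the wild-type pools, with a change of -1.27 (SE 0.42, adjusted p = 0.08). It passed without wild-type pool 2, at -1.93 with an adjusted p of 0.0208. The change of mhc2dcb, a dim gene whose groups overlapped, was 0.21 (adjusted p = 0.587). The cystatin gene cst14b.1, of a family that inhibits cathepsins, fell by 2.07 (SE 0.33, adjusted p = 0.00908), to 6.44 ± 0.46 (SD, n = 3) in transgenic pools, against 8.51 ± 0.08 (SD, n = 2) in wild-type pools.

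Like ifi30a, the lysosomal proteases that passed read higher in every transgenic pool. The asparaginyl endopeptidase lgmn had 10.82, 10.75 and 10.59 in the transgenic pools, against 9.01 and 8.10 in the wild-type pools, a rise of 2.17 (SE 0.28, adjusted p = 0.00458). The carboxypeptidase ctsz had 10.04, 9.97 and 9.74 in the transgenic pools, against 8.33 and 6.92 in the wild-type pools, a rise of 2.30 (SE 0.42, adjusted p = 0.0137). In both, as in ifi30a, the transgenic pools lay close together and above the wild-type pools, of which pool 2 was the lower. In an unmoderated linear model the adjusted p was 0.0663 for lgmn and 0.108 for ctsz.

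The serine carboxypeptidase ctsa rose by 2.04 (SE 0.25, adjusted p = 0.00378), to 9.53 ± 0.23 (SD, n = 3) in transgenic pools, against 7.49 ± 0.31 (SD, n = 2) in wild-type pools. The aspartic protease ctsd rose by 1.39 (SE 0.23, adjusted p = 0.0104), with at least 9.65 in each of the transgenic pools, against 8.70 and 8.20 in the wild-type pools, and its adjusted p without transgenic pool 2 was 0.06 (1.37). The dipeptidyl peptidase ctsc rose by 0.83 (SE 0.23, adjusted p = 0.0467), a call that was kept only when wild-type pool 1 was the array left out. Without transgenic pools 1, 2 and 3 the adjusted p of ctsc was 0.142, 0.246 and 0.0963 (0.75, 0.83 and 0.91), and without wild-type pool 2 it was 0.0645 (0.72).

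By far the largest change of the list was that of the cathepsin L gene ctsl.1, with 11.61, 11.47 and 11.22 in the transgenic pools, against 3.84 ± 0.37 (SD, n = 2) in the wild-type pools, both of them at or below the background bound. It was at least 187-fold higher in transgenic pools (adjusted p = 2.7e-05), and its other probe set at least 212-fold. The tetraspanin cd63 of late endosomes, with a change of -0.03 (SE 0.17, adjusted p = 0.935), and cathepsin L paralog ctsla, at -0.06 (SE 0.22, adjusted p = 0.891), overlapped between the groups. The changes within the endolysosomal list thus ran from at least 187-fold higher to 7.10-fold lower.

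**Figure D4:**
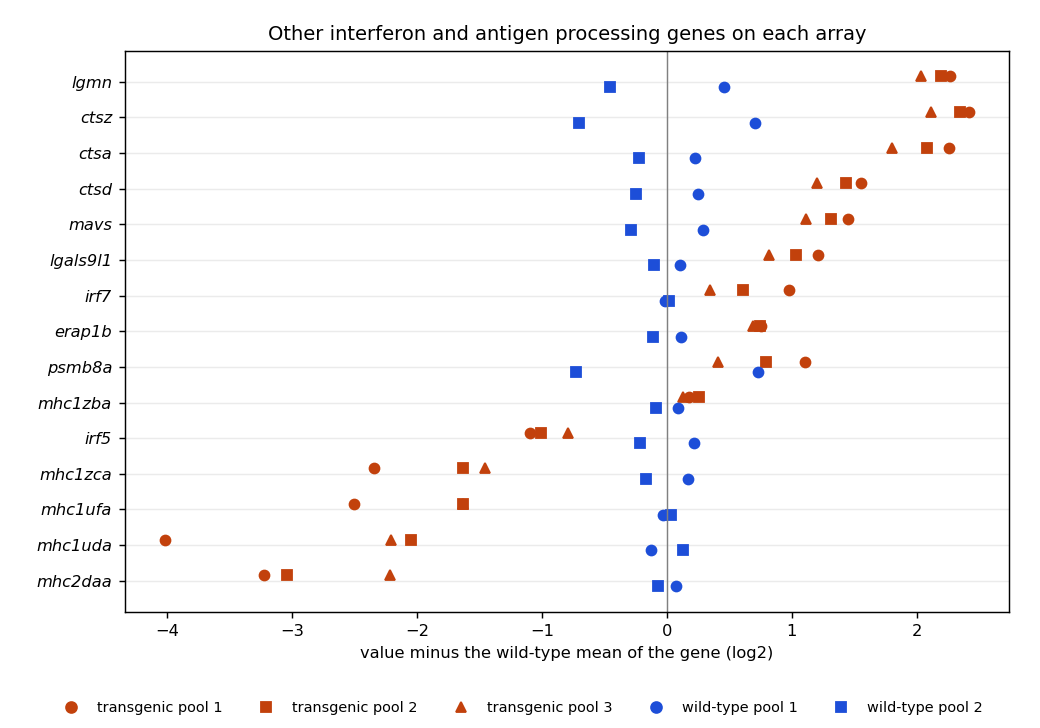
Values of 15 further interferon and antigen processing genes on each array, each minus the wild-type mean of its gene (log2); orange marks transgenic and blue wild-type pools, with 1 symbol per pool. The proteases lgmn, ctsz, ctsa and ctsd lie to the right, mhc1zba lies near 0, and irf5, the class I genes mhc1zca, mhc1ufa and mhc1uda and the class II gene mhc2daa lie to the left, with transgenic pool 1 farthest left in each.

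Class II chains and CD74 are at home in leukocytes, so leukocyte genes were counted too. Of 23 leukocyte genes on the array 18 were tested, 1 rose, 4 fell and 13 did not pass. Of the 18 changes 16 were below 0, with a median of -0.70, which leaving out wild-type pool 1 turned to -0.33 and leaving out wild-type pool 2 to -1.27. The gene that rose was cpa5, a carboxypeptidase used as a mast cell marker in zebrafish, by 7.23 (SE 0.35, adjusted p = 0.000116). The carboxypeptidase genes of the exocrine pancreas list rose too, cpa1 by at least 6.98, cpa4 by at least 6.31 and cpb1 by 7.11. Both wild-type values of cpa1 and of cpa4 were at or below the background bound. Which cells gave the cpa5 signal was not tested. The other change above 0 was that of ncf1, which did not pass (1.05, SE 0.32, limma adjusted p = 0.0669). It had 7.32, 7.13 and 6.97 in the transgenic pools, against 6.50 and 5.69 in the wild-type pools, without overlap. Of the leukocyte list, nccrp1, named for a receptor of non-specific cytotoxic cells, fell by 1.73 (SE 0.23, adjusted p = 0.00467). Which cells gave its signal was not tested either. The others that fell were the chemokine receptor cxcr4b (-1.30, SE 0.32, adjusted p = 0.0344), the T cell costimulatory receptor cd28 (-1.09, SE 0.21, adjusted p = 0.0167) and spi1b, a transcription factor of myeloid cells (-0.99, SE 0.24, adjusted p = 0.0325). Leaving out wild-type pool 2 gave 11 leukocyte genes that passed, 10 of them lower, and leaving out transgenic pool 2 gave 2. The calls of cd28 (-1.09, adjusted p = 0.113), cxcr4b (-1.25, adjusted p = 0.151) and spi1b (-0.97, adjusted p = 0.132) were lost without transgenic pool 2, and that of cd28 also without transgenic pool 3 (-1.05, adjusted p = 0.0579). With other single arrays left out, cxcr4b passed only without transgenic pool 3 and otherwise had adjusted p from 0.0742 to 0.1 (changes from -1.45 to -1.12). The gene spi1b passed only without wild-type pool 2 and otherwise had adjusted p from 0.0563 to 0.0704 (changes from -1.06 to -0.67).

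The summed linear level of the 18 leukocyte genes was 7940 to 8250 in the transgenic pools, against 2520 to 5240 in the wild-type pools. In the transgenic pools most of the sum came from cpa5. Without cpa5, left out after its values were seen, the sum was 1410 to 2020 in the transgenic pools, against 2490 to 5170 in the wild-type pools. The gene ptprc, which encodes CD45, had 6.19, 6.40 and 6.18 in the transgenic pools, against 7.39 and 6.64 in the wild-type pools, with a change of -0.76 that did not pass (SE 0.30, adjusted p = 0.133). A second, dimmer probe set of coro1a, a coronin of leukocytes, was chosen after its values were seen. It passed as at least 1.62-fold lower in transgenic pools (adjusted p = 0.0108), with all 3 transgenic values at or below the background bound. The dimmer probe set was thus tested through the wild-type pools. The brighter one had a change of -0.62 (adjusted p = 0.395). The mean of ptprc, coro1a, lcp1 and laptm5, all 4 widely expressed in leukocytes, was 6.05, 6.37 and 6.39 in the transgenic pools, against 7.67 and 6.43 in the wild-type pools. The wild-type pools differed on this mean by more than the transgenic ones did, and wild-type pool 2 was close to the transgenic pools, whereas cd74a read alike in both wild-type pools. Without wild-type pool 2 the changes were -1.13 for ptprc, -1.33 for coro1a, -1.64 for lcp1 and -1.47 for laptm5. Without wild-type pool 1 they were -0.39 for ptprc, 0.10 for coro1a, -0.37 for lcp1 and 0.02 for laptm5. The size of these falls, and for coro1a and laptm5 the sign, thus depended on which wild-type pool was used. Several leukocyte genes, among them csf1ra, rag1, rag2 and ikzf1, were too dim to be tested.

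Set against that mean on the same array, cd74a was 4.04, 4.13 and 4.14 in the transgenic pools, against 4.04 and 5.28 in the wild-type pools. The groups overlapped on this difference, as they did for cd74b and gbp1. The difference of irf1b was 0.73, 0.66 and 0.41 in the transgenic pools, against 0.75 and 1.51 in the wild-type pools, which did not overlap by a margin far smaller than the spread of the wild-type pools. For isg15 and ifi30a the difference shifted by 1.94 and by 2.52, with no overlap. This had to follow and adds no support, since both genes had risen and the mean had fallen without overlap. The part of leukocyte content in the changes of the 7 genes was not tested.

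Markers of the tissues in the pools were counted as well. Of 23 tested genes of squamous epithelium 21 fell and none rose, with a median of -2.13 and a summed linear level of 6960 to 14300 in the transgenic pools, against 44400 to 45700 in the wild-type pools. Of 20 genes of striated muscle 16 did not pass, 4 fell and none rose. Their median was -2.47, and the sum was 3540 to 20800 in the transgenic pools, against 39100 to 41000 in the wild-type pools. Of the muscle changes 17 were below 0 and 3 above, those of acta1a (0.50), pvalb1 (1.48) and pvalb2 (2.12). A dimmer probe set of actc1b was at least 7.71-fold higher in transgenic pools (limma adjusted p = 0.000389). The brightest probe set of actc1b had a change of -2.14 (adjusted p = 0.0919). Transgenic pool 1 had the lowest sum of both lists, and it was also the lowest array for cd74a, cd74b, irf1b and gbp1.

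In the other direction, many genes exceeded the background bound in neither wild-type pool and were tested through the transgenic pools, so their medians are given with such genes at their bound. Of 17 intestinal absorptive genes 16 rose (median of at least 5.96, 9 at the bound), with sums of 46800 to 55400 in the transgenic pools, against 395 to 412 in the wild-type pools. All 13 tested genes of the exocrine pancreas rose (median of at least 8.27, 7 at the bound), with sums of 59800 to 69300 in the transgenic pools, against 164 to 247 in the wild-type pools. Of 14 hepatocyte genes 13 rose (median of at least 6.47, 10 at the bound), with sums of 27500 to 35200 in the transgenic pools, against 1850 to 2080 in the wild-type pools. Most of the wild-type sum came from rbp4, the hepatocyte gene that did not pass, with 10.70 and 10.88 in the wild-type pools (a change of -0.10, limma adjusted p = 0.65). Pools under the same label of upper digestive tract thus differed widely in these markers, and the tissue makeup of a pool and its genotype cannot be told apart for any of the 7 genes. The level of the transgene itself was not analysed here.

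**Figure D5:**
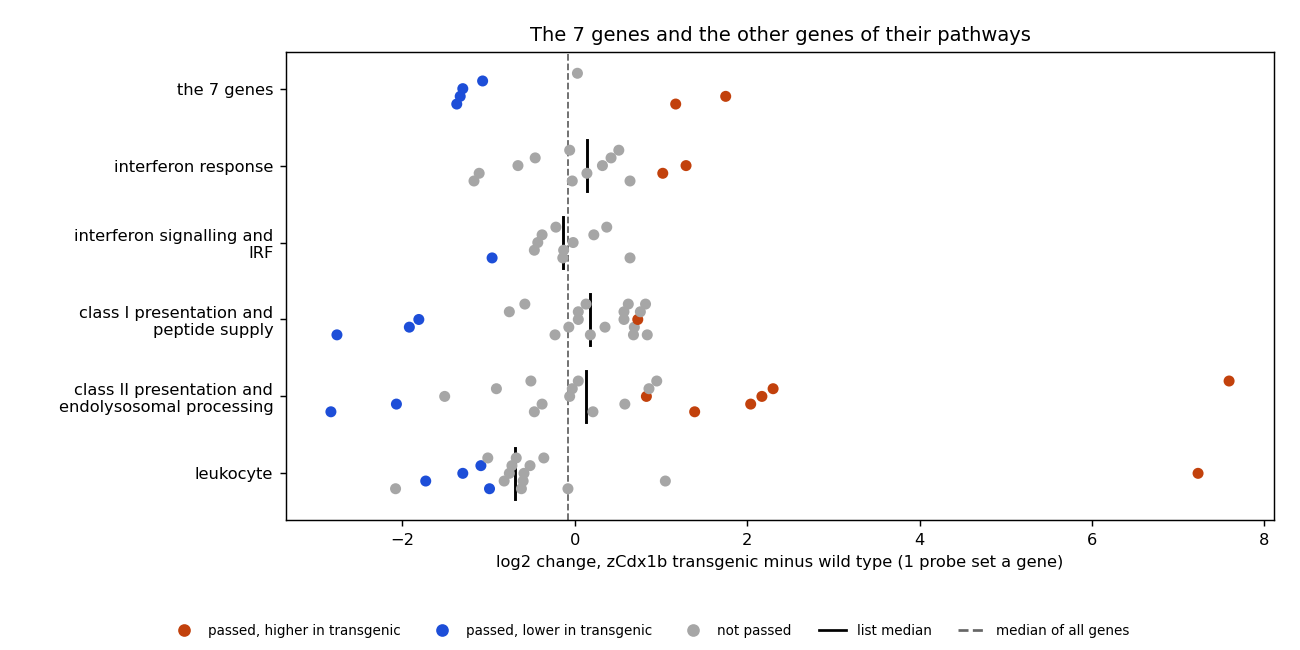
Log2 changes, transgenic minus wild type, of the 7 genes and of the tested genes of 5 lists, 1 point per gene; orange passed and higher, blue passed and lower, gray not passed, with a bar at each list's median and a dashed line at the median of all genes, -0.08. Interferon and presentation lists spread to both sides with medians from -0.14 to 0.18, and the leukocyte list has its median at -0.70.

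Across the 5 arrays, the pair of the 7 genes with the likest profile was cd74a and cd74b, whose mean-centred values differed by a root mean square of 0.0452. The profiles of isg15 and ifi30a, the genes that rose, differed by 0.33, and those of gbp1 and cd74a by 0.161. Among 6472 other genes, the closest to each member were ilvbl (0.0298) and si:dkey-199f5.8 (0.0353) for isg15, akr7a3 (0.0604) and dbi (0.061) for ifi30a, and rtn1b (0.0512) and ndrg4 (0.0622) for irf1b. For gbp1 they were spegb (0.0211) and atl3 (0.0275), for b2m hnrnpua (0.0229) and mtmr2 (0.0295), for cd74a evplb (0.0429) and gpc1b (0.0453), and for cd74b fc38b04 (0.0261) and cishb (0.0529). This likeness describes the 5 arrays only, and none of these closest genes was in the pathway lists.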

How the data were processed

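Total RNA extracted with TRIzol was amplified into biotin-labelled cRNA and hybridised to 5 Affymetrix zebrafish arrays, per the labels' protocols. The authors deposited log2 expression values for every probe set on each array, and these were used as given. The submitters' processing notes name MAS5 without a version, and its scaling target was not found in the sources used here. The base of 2 was taken from the range of the values. Every array had a mean of 4.89, which shows that arrays had been brought to a common level before deposit. No detection calls or scanner intensities were used.

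Of 15502 probe sets besides 115 controls, 10795 had 1 gene symbol in GEO's platform annotation, 135 had several and 4572 had none, with symbols updated by Entrez identifier against a RefSeq table of GRCz12tu. A probe set was tested when it reached the 40th percentile of its array on at least 2 arrays, which kept 10335. Transgenic and wild-type pools were compared over the whole table with limma 3.58.1 (R 4.3.3; lmFit, eBayes with trend, no covariate), two-sided, with Benjamini-Hochberg adjustment and a threshold of 0.05, and the procedure was tested on simulated data. The number of arrays limits the precision. The labels do not say whether pools came from separate crosses, so p-values measure only the spread between these pools.

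The 7 genes and the lists (interferon response, interferon signalling and IRF, class I presentation and peptide supply, class II presentation and endolysosomal processing, leukocyte, squamous epithelium, intestinal absorptive, exocrine pancreas, hepatocyte and striated muscle) were chosen with earlier results of these data known. Of several probe sets of a gene, the one of highest mean level stood for it. Named genes were all 7, up to 4 genes of each pathway and leukocyte list that passed without overlap and changed most, the 2 brightest genes of each, and the 2 genes with the likest profile to each of the 7. Other genes named, the background bound, the families sharing a symbol's beginning and the within-array pairs were chosen after their values were seen. The symbol cd3eap, an RNA polymerase I subunit listed in error among leukocyte markers, was left out. The labels give replicate numbers but do not say whether same-numbered pools were paired, and the main fit used no pairing. Deviations of same-numbered pools from their group means correlated at -0.254 for number 1 and -0.125 for number 2. As the deviations of 2 wild-type pools mirror each other, these correlations cannot decide whether the pools were paired. Alternatives were other scalings, filters, variance priors and thresholds, a replicate block, an unmoderated linear model, averaged probe sets and each array left out.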

Additional observations from a re-analysis of the deposited data

How the results depend on the processing

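No alternative reversed a call of the 7 genes; the groups of 3 and 2 pools are small, and most calls were lost where less of the spread was borrowed from other probe sets. In an unmoderated linear model 837 probe sets and 1 of the 7 passed, gbp1, which was tested through the wild-type pools. Of the others, isg15 (1.17), ifi30a (1.75), irf1b (-1.30), cd74a (-1.33) and cd74b (-1.37) had adjusted p of 0.0562 to 0.079 in that model. There the lists gave 0 calls for interferon response, 0 for interferon signalling and IRF, 1 for class I, 2 for class II and 2 for leukocyte genes, and 4 of the 20 called list genes named kept their call: erap1b, ctsl.1, ctsa and cpa5. With a replicate block isg15 and irf1b lost their calls, with changes of 1.28 (adjusted p = 0.116) and -1.27 (adjusted p = 0.126). No wild-type pool had number 3, so transgenic pool 3 added nothing to the changes in that fit. They equal those with transgenic pool 3 left out. With the replicate block 4 interferon response genes passed, 2 in each direction. Whether the replicate numbers pair the pools is not known. Quantile normalization gave 8 leukocyte calls, and the 60th percentile filter 0 for interferon signalling and IRF. With each array left out, 979 (without transgenic pool 2) to 2614 probe sets and 3 (also without that pool) to 6 of the 7 passed. The change of isg15 ran from 1.0 to 1.33, that of irf1b from -1.54 to -1.07 and that of gbp1 from -1.13 to -1.0. Calls ran from 0 to 2 for interferon response, 0 to 1 for signalling and IRF, 2 to 6 for class I, 6 to 10 for class II and 2 to 11 for leukocyte genes. Directions moved too: class I had 6 higher and 0 lower without wild-type pool 1, and class II 5 and 5 without wild-type pool 2. List medians turned sign to -0.01 for interferon response, -0.11 for class I and -0.03 for class II without wild-type pool 2, and to 0.15 for signalling and IRF without wild-type pool 1. The median change of all tested probe sets was -0.101, and -0.043 after median centring. Averaging probe sets changes none of the 7, which have 1 each. Where a cause is not named, the cause was not tested.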

Other observations

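Families of interferon genes were taken by the beginning of their symbol. Of the ifi27 genes, small mitochondrial or membrane proteins induced by interferon in mammals, ifi27.2 read 8.79, 8.61 and 8.29 in the transgenic pools, against 5.69 and 7.20 in the wild-type pools, and rose by 2.12 (SE 0.47, limma adjusted p = 0.0261). Its relative ifi27.1 read 5.81, 6.24 and 6.22 in the transgenic pools, against 8.02 and 7.30 in the wild-type pools, and fell by 1.57 (SE 0.32, adjusted p = 0.0193). Neither overlapped between the groups, and both lost the call without transgenic pool 2, with adjusted p of 0.0799 for ifi27.2 and 0.0782 for ifi27.1. The call of ifi27.2 was also lost after quantile normalization (1.97, adjusted p = 0.056).

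Of 5 ifi44 genes tested, ifi44f4 was the only one that passed, at least 1.50-fold higher in transgenic pools (adjusted p = 0.0187), with both wild-type values at or below the background bound. It failed without transgenic pool 2 (1.26, adjusted p = 0.0638) and with either wild-type pool left out (1.18, adjusted p = 0.0803, for pool 1 and 1.28, adjusted p = 0.0611, for pool 2). The gene ifi44d read 4.11, 4.17 and 4.14 in the transgenic pools, against 4.61 and 6.01 in the wild-type pools, with a change of -1.17 (SE 0.40, adjusted p = 0.0888). Neither gig2 gene tested, of a fish family induced by virus, passed, and gig2o had a change of 0.52 (SE 0.31, adjusted p = 0.31). Of 12 proteasome beta subunit genes, standard and immune, none passed in either direction, and their median change was -0.10. The immune subunits named above had changes above 0, from 0.13 for psmb9a to 0.82 for psmb13a. Those of the standard subunits psmb1 to psmb7 were below 0, from -0.83 for psmb7 to -0.05 for psmb2. The groups overlapped for all of these beta subunit genes except psmb1 and psmb7. Over the alternatives the change of psmb9a ran from -0.44 to 0.70, so its sign was not stable. Within each array, psmb8a minus psmb5 shifted by 1.04, psmb9a minus psmb6 by 0.27 and psmb10 minus psmb7 by 1.45. None of these pairs, chosen after the values were seen, overlapped between the groups. For psmb9a minus psmb6 the nearest arrays were close, at -0.93 in transgenic pool 3 and -1.0 in wild-type pool 1. How often pairs of other genes did not overlap was not counted, and of single tested probe sets 50.9% did not.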
